A study of Mus musculus with 2 samples.

Results

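The genes described here are the nuclear-encoded genes of oxidative phosphorylation in mouse lung cells sorted by a dendritic cell (DC) reporter. They were chosen by symbol, as those starting with Nduf, Uqcr, Cox4i, Cox5, Cox6, Cox7, Cox8 or Atp5 together with Sdha, Sdhb, Sdhc and Sdhd, without symbols holding -ps. The rule found 93 of 32285 genes. By role these were 36 genes of complex I, 8 complex I assembly factors (Ndufaf symbols), 4 of complex II, 8 of complex III, 20 of complex IV and 17 of complex V. Ndufa4, long listed with complex I and now assigned to complex IV, and its relative Ndufa4l2 were counted with complex IV.

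Oxidative phosphorylation passes electrons from NADH (complex I) and succinate (complex II) through coenzyme Q, complex III and cytochrome c to oxygen at complex IV. Complexes I, III and IV pump protons across the inner mitochondrial membrane, and complex V, the ATP synthase, uses that gradient to make ATP. A few core subunits come from mitochondrial DNA, and the rest, described here, from nuclear genes. In DC and macrophages the balance between this pathway and glycolysis is known to shift with activation.

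The cells came from zbtb46-cre x rosa26-yfp mice, in which Cre driven from a classical DC transcription factor gene marks a cell and its progeny with YFP for good. Neonatal mice were 7 days old and adult mice 8 weeks old, of the same reporter genotype and without other treatment in the labels. Each age was sampled as 2 independent pools of at least 5 mice, from which viable YFP+ leukocytes (CD45.2+) were sorted and read as 3′ UMI counts. The pool is the replicate, so n = 2 per age in every comparison, and the study asks how lung DC differ between these ages.

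The pools of 1 age were hashtagged, combined and loaded together, so age and loading cannot be told apart. Total gene UMIs ran from 8172362 to 20346024 per pool, and 12725 of 14710 barcodes were kept. No barcode was shared by pools of 1 age (0 shared), and at most 9 by a neonatal and an adult pool. The labels call the cells dendritic, but 34.0% of them fell into DC classes (40.2% and 35.1% of the neonatal pools, 27.7% and 24.0% of the adult pools), the others being mostly monocytes, neutrophils and lymphocytes. Classes were rebuilt here by clustering without the 93 genes and named from marker genes, hence "-like". Neonatal pool 1 was female by its sex-linked UMIs, pool 2 mostly so, and the adult pools male, so that sex and age cannot be told apart over whole pools.

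Promoters of the family are shown first, since the genes lie on 19 chromosomes and their start regions are what a shared regulator would read. Windows of 300 bases (250 before to 50 after the start) from RefSeq on GRCm38 were found for 76 of the 93 genes. The core motif of NRF1, a regulator of many mitochondrial genes, was searched as TGCGCATGC on both strands. It was present in 6 of the 76 windows (7.9%), against 1.72% of 27025 genes and 3.76% of 7916 genes tested in cDC1-like cells. The 4 windows below hold it, written 5′ to 3′ on the gene's strand with the motif, or its overlapping copies on both strands, in capitals. They belong to the c-ring gene Atp5g2 (chr15:102670998-102671297, minus strand), the complex I gene Ndufa8 (chr2:36049289-36049588, minus strand), the complex III core gene Uqcrc1 (chr9:108936398-108936697, plus strand) and the complex I gene Ndufa6 (chr15:82354242-82354541, minus strand). The first 3 were called higher in neonatal cDC1-like cells and Ndufa6 lower, as described further on.
Atp5g2: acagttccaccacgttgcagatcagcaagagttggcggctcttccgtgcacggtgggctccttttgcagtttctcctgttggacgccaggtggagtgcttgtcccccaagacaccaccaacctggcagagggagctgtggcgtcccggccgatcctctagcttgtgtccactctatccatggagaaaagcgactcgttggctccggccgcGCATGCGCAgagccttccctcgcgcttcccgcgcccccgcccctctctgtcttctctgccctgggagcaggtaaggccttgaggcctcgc
Ndufa8: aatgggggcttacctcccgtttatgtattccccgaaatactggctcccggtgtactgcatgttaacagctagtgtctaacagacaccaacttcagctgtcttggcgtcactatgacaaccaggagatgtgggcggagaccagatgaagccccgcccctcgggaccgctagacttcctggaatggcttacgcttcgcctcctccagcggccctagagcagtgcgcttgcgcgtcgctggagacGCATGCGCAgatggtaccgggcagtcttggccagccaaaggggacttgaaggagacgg
Uqcrc1: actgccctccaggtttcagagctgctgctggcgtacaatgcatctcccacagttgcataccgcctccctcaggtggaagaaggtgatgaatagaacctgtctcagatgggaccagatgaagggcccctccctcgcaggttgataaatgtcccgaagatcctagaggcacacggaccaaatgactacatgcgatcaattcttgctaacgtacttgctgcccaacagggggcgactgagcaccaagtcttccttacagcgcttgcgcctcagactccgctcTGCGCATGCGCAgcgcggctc
Ndufa6: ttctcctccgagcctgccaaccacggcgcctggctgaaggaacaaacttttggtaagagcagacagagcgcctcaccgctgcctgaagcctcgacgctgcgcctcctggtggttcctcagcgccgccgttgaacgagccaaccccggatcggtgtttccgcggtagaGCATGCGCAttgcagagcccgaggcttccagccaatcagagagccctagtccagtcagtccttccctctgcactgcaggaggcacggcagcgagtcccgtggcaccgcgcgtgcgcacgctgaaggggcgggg

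The motif was also present at Atp5l and Ndufaf4. Relative to the annotated start it lay at -40 in Atp5g2, -8 in Ndufa8 and -83 in Ndufa6, and at 29 and 32 in Uqcrc1, in bases from the start. Of the other motifs searched on both strands, the YY1 motif AAGATGGC was present in 14.5% of the windows of the family, 3.19% of all genes and 6.03% of genes tested in cDC1-like cells. The ETS motif CCGGAAGT was present in 6.6%, 4.31% and 10.6%, and the SP1 motif GGGGCGGGG in 15.8%, 12.91% and 25.64%, in the same order. Motifs were searched separately, with overlaps between them allowed, and a match describes the window only.

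The share of UMIs given to the family was summed over the 93 genes in the 7 classes with at least 50 cells in every pool. Among these classes, the adult sum was lowest in neutrophil-like cells (8542 ± 77.3 CPM, mean ± SD of 2 pools, where CPM is UMIs per 1000000 gene UMIs of the class), followed by mature DC-like cells (13754 ± 478). Nonclassical monocyte-like (15890 ± 79.9), cDC1-like (15997 ± 22.0) and T cell-like cells (16118 ± 147) lay close together, the last pair differing by less than the SD of the T cell-like pools. Above them came cDC2-like (17651 ± 69.4) and classical monocyte-like cells (20052 ± 428). These are levels over classes made by clustering and were not tested against each other.

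Between ages, 3 patterns were visible in the sums. In cDC1-like cells the neonatal pools gave 21726 and 21470 CPM and the adult pools 15982 and 16013, a ratio of the means of 1.35. In cDC2-like cells the values were 23231 and 22583 against 17700 and 17602, a ratio of 1.30. T cell-like cells gave 21366 and 22328 against 16222 and 16014, a log2 ratio of 0.44 that was 0.22 after TMM scaling. Classical monocyte-like cells (ratio 1.15) and nonclassical monocyte-like cells (ratio 1.12) were higher by less. After TMM scaling, which removes a shift shared by most genes, the log2 ratios of the sums were 0.39 in cDC1-like and 0.20 in cDC2-like cells but 0.01 in classical and 0.04 in nonclassical monocyte-like cells. Neutrophil-like cells gave 8743 and 8819 against 8597 and 8487. Mature DC-like cells went the other way, with 11250 and 12012 in neonatal and 13416 and 14092 in adult pools, and the 2 clusters of that class, described further on, differed in direction. In none of the 7 classes did neonatal and adult pools overlap in the sum.

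**Figure D1:**
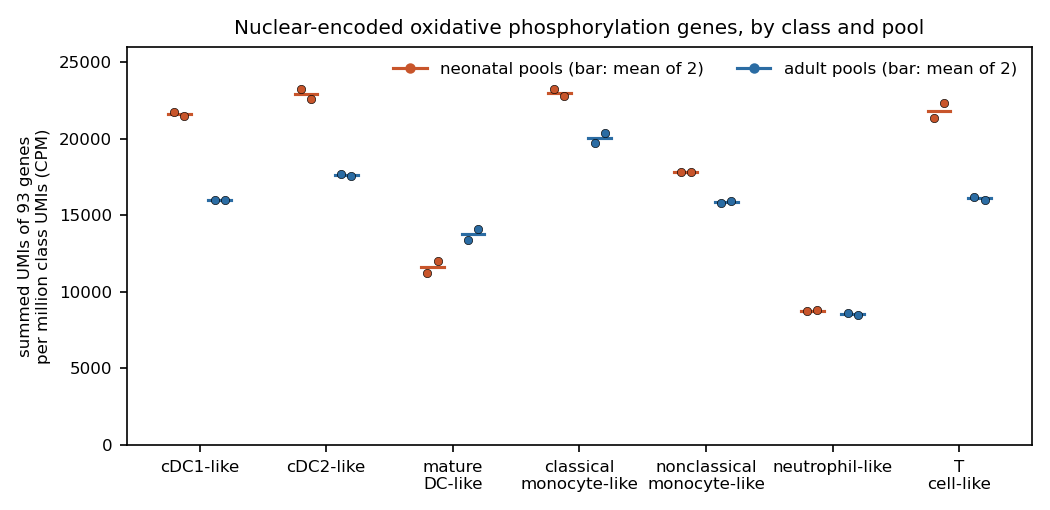
Summed CPM of the 93 genes in each of 7 classes (x axis), with 1 point per pool and a bar at the mean of 2 pools of an age (y axis starts at 0). Neonatal pools lie above adult pools in cDC1-like, cDC2-like and T cell-like cells (ratios 1.35, 1.30 and 1.36) and below them in mature DC-like cells (0.846).

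In cDC1-like cells, the cross-presenting DC subset of the lung, 64 of the 87 genes tested were called higher in neonatal cells and 3 lower, at an adjusted p under 0.05 over all genes tested. Of all 9835 genes, 11.5% were called higher and 14.3% lower. The median log2 fold change was 0.37 in the family and 0.00 over all genes. Called values ran from 0.20 to 1.30 where higher and from -0.58 to -0.16 where lower. The 6 genes not tested (Cox4i2, Cox6a2, Cox7b2, Cox8b, Cox8c and Ndufa4l2) failed the filter on low counts in every class. Log2 values below are neonatal over adult ± standard error, from edgeR's quasi-likelihood test with Benjamini-Hochberg adjustment.

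Complex V was called higher throughout, with 17 of 17 genes. The c-ring gene Atp5g3 had 319 and 321 CPM in neonatal and 181 and 176 CPM in adult pools (0.79 ± 0.06, adjusted p = 3.3e-13). Atp5k, subunit e of the membrane part, had 183 and 172 against 93.7 and 104 CPM (0.81 ± 0.08, adjusted p = 1.2e-10). Atp5md, a small membrane subunit found where ATP synthase forms dimers, had 305 and 327 against 196 and 192 CPM (0.65 ± 0.06, adjusted p = 8.6e-11). The head subunits Atp5a1 and Atp5b were higher by 0.42 ± 0.06 and 0.37 ± 0.05. In each of these genes both neonatal pools stood above both adult pools. The genes were picked by small p or after their values were seen, and such splits were not counted over all genes.

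Complex IV had 12 genes called higher and 1 lower (Cox7a2l) of 14 tested. Ndufa4 had the smallest p of the family, with 376 and 374 CPM in neonatal and 154 and 149 CPM in adult pools (1.26 ± 0.07, adjusted p = 2.4e-19). Cox6c, a small accessory subunit, had 673 and 672 against 385 and 389 CPM (0.75 ± 0.05, adjusted p = 1.5e-15). Cox8a, the smallest nuclear subunit, had 757 and 739 against 474 and 475 CPM (0.61 ± 0.05, adjusted p = 2.1e-13). The fold change of 1.30 ± 0.30 for Cox6b2, known as the testis form of subunit 6b, was the highest called but rested on low levels (13.2 and 13.9 against 6.28 and 4.00 CPM).

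Complex I, the entry point for NADH, had 26 of 36 genes called higher and 1 lower. The 3 with the smallest p were all accessory subunits of the membrane arm. Ndufb11 had 346 and 345 CPM in neonatal and 210 and 226 CPM in adult pools (0.62 ± 0.06, adjusted p = 8.5e-11). Ndufb7 had 293 and 289 against 200 and 168 CPM (0.60 ± 0.07, adjusted p = 5.0e-09), and Ndufb8 had 304 and 299 against 207 and 207 CPM (0.49 ± 0.06, adjusted p = 3.7e-08). Among core subunits of nuclear origin, Ndufs7 (0.26 ± 0.08) and Ndufv2 (0.36 ± 0.08) were called higher, while Ndufs1 (0.24 ± 0.19), Ndufs3 (0.21 ± 0.10), Ndufs8 (0.15 ± 0.09) and Ndufv1 (0.23 ± 0.12) did not pass. Ndufa6, an accessory subunit of the matrix arm, was the gene called lower, with 301 and 318 against 333 and 351 CPM (-0.19 ± 0.06, adjusted p = 0.013).

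The assembly factors of complex I, which help build the enzyme and are not part of it, had 1 gene called higher and 1 lower of 8 (median -0.02). Ndufaf6 had 26.0 and 22.6 against 16.7 and 11.4 CPM (0.70 ± 0.21, adjusted p = 0.0087). Ndufaf7, a methyltransferase that modifies a complex I subunit, had 20.9 and 19.9 against 31.8 and 26.8 CPM (-0.58 ± 0.17, adjusted p = 0.0089). Their summed level was 197 ± 0.66 CPM in neonatal and 187 ± 7.34 CPM in adult pools. The difference between assembly factors and subunits was not tested.

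Complex III had 6 of 8 genes called higher. Uqcr10, Uqcrb and Uqcr11, small accessory subunits, were higher by 0.53 ± 0.07, 0.41 ± 0.06 and 0.39 ± 0.08 (largest adjusted p = 7.6e-05). The core subunit Uqcrc2 had 114 and 109 against 115 and 98.2 CPM (0.00 ± 0.09), with overlapping pools. In complex II, the membrane anchors Sdhd (0.56 ± 0.10, adjusted p = 2.4e-05) and Sdhc (0.46 ± 0.13, adjusted p = 0.0081) were called higher. The flavoprotein Sdha had 79.6 and 71.0 against 69.0 and 85.1 CPM (-0.06 ± 0.11) and the iron-sulphur subunit Sdhb a value of 0.19 ± 0.08 (adjusted p = 0.094).

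**Figure D2:**
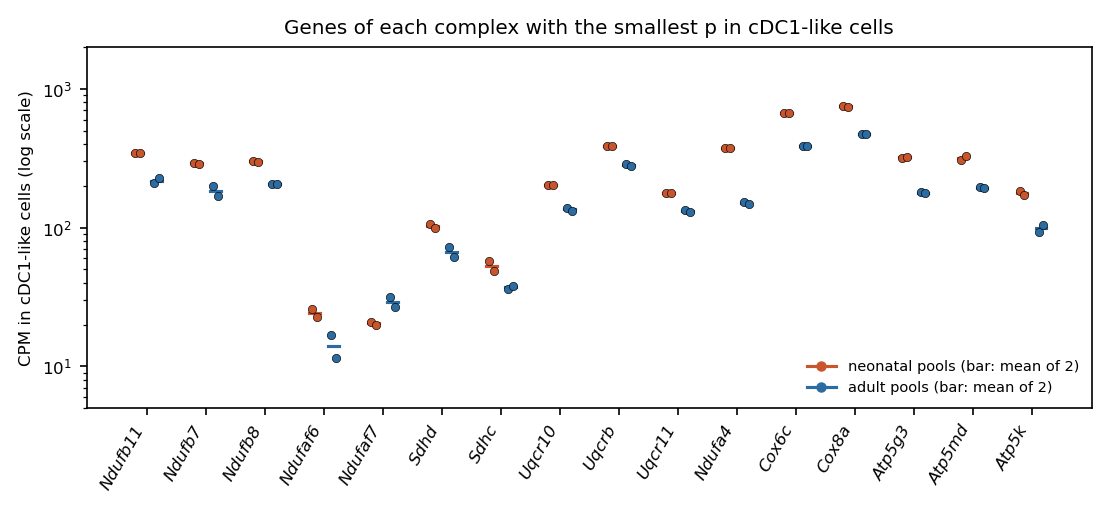
CPM (log axis) in cDC1-like cells of up to 3 genes per complex or role with the smallest p among those called, with 1 point per pool and a bar at the mean of 2 pools. Neonatal pools stand above adult pools for each gene drawn except Ndufaf7, whose neonatal pools (20.9 and 19.9 CPM) lie below the adult ones (31.8 and 26.8 CPM).

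The cDC1-like cells of each age lay mostly in different clusters. Cluster 1, led by Xcr1 and Clec9a, held 707 and 665 neonatal and 53 and 42 adult cells, and cluster 9, led by Epcam, Plet1 and Cldn1, held 60 and 43 neonatal and 260 and 188 adult cells. The sum of the family was higher in neonatal cells within each. It was 21918 and 21572 against 16398 and 16127 CPM in cluster 1, and 19463 and 19986 against 15897 and 15991 CPM in cluster 9. Within cluster 1, 32 genes were called higher and 0 lower of 86 tested, against 2.67% and 3.83% of all genes. Within cluster 9, a setting chosen after the clusters were seen, 19 were called higher and 1 lower (Ndufa6) of 83, against 4.97% and 5.49%. Ndufa4 was higher by 0.62 in cluster 1 and by 1.20 in cluster 9 (adjusted p = 4.7e-05 and 9.5e-10).

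Several other measures moved with age in these cells. Markers of cDC1 summed to 6599 and 6668 CPM in neonatal and 4877 and 4574 CPM in adult cells. Of the 10 tested, 8 were called higher and 0 lower. UMIs of 16 proliferating cell markers summed to 197 and 204 CPM in neonatal and 114 and 121 CPM in adult cDC1-like cells, and 7 of the 13 tested were called higher. Without cells holding 2 or more such UMIs, 62 genes of the family were called higher and 2 lower of 86, against 10.8% and 13.9% of all genes. Markers of classical monocytes, a type with high levels of the family, summed to 371 and 351 CPM in neonatal and 774 and 739 CPM in adult cells, with 1 of the 6 tested called higher and 2 lower (median -0.10). Erythroid markers summed to 601 and 122 CPM in neonatal and 3.77 and 3.43 CPM in adult cells, with 0 of the 4 tested called. The part of these markers in the result was not tested. Median depth was 6657 and 6838.5 UMIs per cell in neonatal and 7786 and 7911 in adult pools, and the family took 144 and 146 UMIs per cell against 122 and 122. With every cell thinned to 1000 UMIs, 37 genes were called higher and 0 lower of 82, against 4.79% and 7.46% of all genes, with a median of 0.48.

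Sex-linked UMIs split the cells of neonatal pool 2. There, 86 cDC1-like cells with Y-linked UMIs and no Xist UMI gave 21538 CPM, and 517 cells with Xist and no Y-linked UMI gave 21400 CPM. Adult cells with Y-linked UMIs and no Xist UMI gave 15688 and 15972 CPM. These are cells of single pools, and the part of sex in the age difference was not tested. The 3 members on the X chromosome, Ndufa1, Ndufb11 and Cox7b, were called higher by 0.26, 0.62 and 0.59.

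Lists of genes around the family were read from the same cDC1-like test, in which 11.5% of all genes were higher and 14.3% lower. Of 13 mitochondrially encoded subunits, 10 were called higher and 0 lower (median 0.17), led by mt-Cytb (0.29 ± 0.04, adjusted p = 8.3e-08) and mt-Nd3 (0.46 ± 0.06, adjusted p = 2.3e-07). Of 78 mitochondrial ribosomal protein genes, 18 were called higher and 0 lower (median 0.17), led by Mrpl34 (0.61 ± 0.10) and Mrps14 (0.41 ± 0.07). Of 90 cytosolic ribosomal protein genes, 17 were higher and 23 lower (median -0.04), with Rpl5 at -0.41 ± 0.04 and Rps4x at -0.36 ± 0.03. The share of UMIs on the latter list was 23.0% in neonatal and 22.8% in adult pools.

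Of 25 complex IV assembly genes, 5 were higher and 0 lower, among them Higd2a, a factor for complex IV and its supercomplexes (217 and 221 against 124 and 137 CPM, 0.71 ± 0.07, adjusted p = 2.6e-10). Chchd10, a small intermembrane space protein, had 38.03 and 32.8 against 4.18 and 11.4 CPM (2.23 ± 0.24, adjusted p = 1.6e-09). Of 20 electron carrier and complex III assembly genes, 3 were higher and 1 lower (median 0.06). They were led by Etfb, an electron transfer flavoprotein subunit (0.77 ± 0.08), and Coq10b, a coenzyme Q binding protein that was lower (-0.83 ± 0.11). Of 16 other assembly genes, Atpif1, the inhibitor of ATP synthase, was the only one called (677 and 707 against 429 and 440 CPM, 0.63 ± 0.05, adjusted p = 3.2e-13). The median of these 16 genes was 0.02.

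The pyruvate dehydrogenase and TCA cycle list had 5 higher and 0 lower of 18 (median 0.23), led by Idh2 (27.0 and 30.1 against 5.02 and 10.3 CPM) and Suclg1 (0.44 ± 0.10). Glycolysis genes were mixed, with 5 higher and 4 lower of 18 (median -0.06). Gapdh was higher by 0.34 ± 0.05 and the phosphofructokinase gene Pfkp lower at -0.47 ± 0.07. Regulators of mitochondrial biogenesis had 1 higher and 2 lower of 15 (median -0.075). The coactivator gene Ppargc1b had 59 and 55 UMIs in neonatal and 0 and 0 UMIs in adult cDC1-like cells, at least 15.9-fold higher against a floor of 3 UMIs over both adult pools. Hif1a, the hypoxia factor, had 32.9 and 39.2 against 66.5 and 69.7 CPM (-0.96 ± 0.13, adjusted p = 5.3e-08).

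In cDC2-like cells, which present mainly to CD4 T cells, 34 of 85 genes were called higher and 1 lower, against 6.84% and 9.78% of all genes, with a median of 0.24. Of the 34, 33 were also called higher in cDC1-like cells, where 64 of 87 were. That comparison shares its pools but not its cells, and the overlap was not counted over all genes. Atp5k had 226 and 208 against 126 and 97.1 CPM (0.79 ± 0.12, adjusted p = 3.4e-05). Atp5g3 had 307 and 270 against 159 and 176 CPM (0.62 ± 0.11, adjusted p = 9.9e-05). Cox7a2l was the gene called lower (389 and 373 against 495 and 508 CPM, -0.57 ± 0.08, adjusted p = 4.9e-06). By role, 11 of 36 genes of complex I were higher, 2 of 4 of complex II, 4 of 8 of complex III, 8 of 13 of complex IV and 9 of 17 of complex V.

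Of the mitochondrially encoded subunits in cDC2-like cells, 9 of 13 were called higher and 0 lower. Cytosolic ribosomal protein genes had 5 higher and 64 lower of 90. Proliferating cell markers summed to 1053 and 832 CPM in neonatal and 332 and 297 CPM in adult cDC2-like cells. Without the cells holding 2 or more of their UMIs, 22 genes of the family were called higher and 1 lower, against 5.21% and 9.28% of all genes. Markers of cDC1 summed to 1056 and 1125 CPM in neonatal and 624 and 573 CPM in adult cDC2-like cells, with 3 of the 6 tested called higher and 1 lower, and their part in the result was not tested. The 35 calls became 9 with DESeq2 (6.43% of all genes called), 7 in thinned cells (11%), 18 at the finer clustering (12.6%), 18 with the pool number as a replicate block (11.9%) and 55 with library totals (21.1%). They became 16 without neonatal pool 1 (11.1%) and 18 without adult pool 1 (10.8%).

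Tested directly, the age difference was larger in cDC1-like than in cDC2-like cells for 10 of 86 genes and smaller for 0, against 4.25% of all genes larger and 4.54% smaller (median difference 0.14, against -0.03 over all genes). Ndufa4 differed by 0.68 ± 0.12 (adjusted p = 2.9e-07), Ndufb11 by 0.58 ± 0.12 (adjusted p = 1.4e-05) and Cox7a2l by 0.40 ± 0.09 (adjusted p = 5.3e-04). For Ndufb11 the cDC2-like value was 0.03 ± 0.09, while for Cox7a2l it was the more negative of the pair. The count was lower without neonatal pool 1 and without neonatal pool 2, and the share of all genes called there was not set beside it.

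Mature DC-like cells, which carry Ccr7 and Fscn1 and have left the tissue-sampling state, showed the opposite sign over the class, while their 2 clusters differed in sign. Over the class, 34 of 83 genes were called lower in neonatal cells and 0 higher, against 15.5% and 14.5% of all genes, with a median of -0.34. Cluster 4, led by Fscn1, Ccl5 and Il12b, held 417 and 391 neonatal but 9 and 9 adult cells, while cluster 10, led by Ccl22, Fabp5 and Apol7c, held 108 and 132 neonatal and 107 and 97 adult cells. In cluster 4 the family summed to 9620 and 9870 CPM in neonatal and 13753 and 10676 CPM in the few adult cells, so that neonatal pools were lower there too. In cluster 10 it summed to 16282 and 16921 CPM in neonatal and 13386 and 14330 CPM in adult cells. Without cluster 4, a choice made after the clusters were seen, 10 genes were called higher and 0 lower of 80, against 2.84% and 4.54% of all genes, and the median was 0.32.

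Single genes varied in how they behaved by cluster. Atp5h, a peripheral stalk subunit of complex V, had 326 and 339 against 539 and 568 CPM over the class (-0.84 ± 0.10, adjusted p = 3.3e-07). Within cluster 10 it had 472 and 555 against 553 and 585 CPM, with overlapping pools. Within cluster 4 both neonatal pools were lower, with 278 and 244 against 389 and 326 CPM (24 and 15 adult UMIs). Ndufa2 of complex I (-0.84 ± 0.15, adjusted p = 8.6e-05), Cox7a2l (-0.68 ± 0.10, adjusted p = 1.2e-05) and Uqcrq of complex III (-0.66 ± 0.13, adjusted p = 1.9e-04) were also lower over the class. For Cox7a2l the value without cluster 4 was -0.08. Atp5g3 had 199 and 193 against 120 and 126 CPM within cluster 10 and was called higher there by 0.66 (adjusted p = 0.017).

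**Figure D3:**
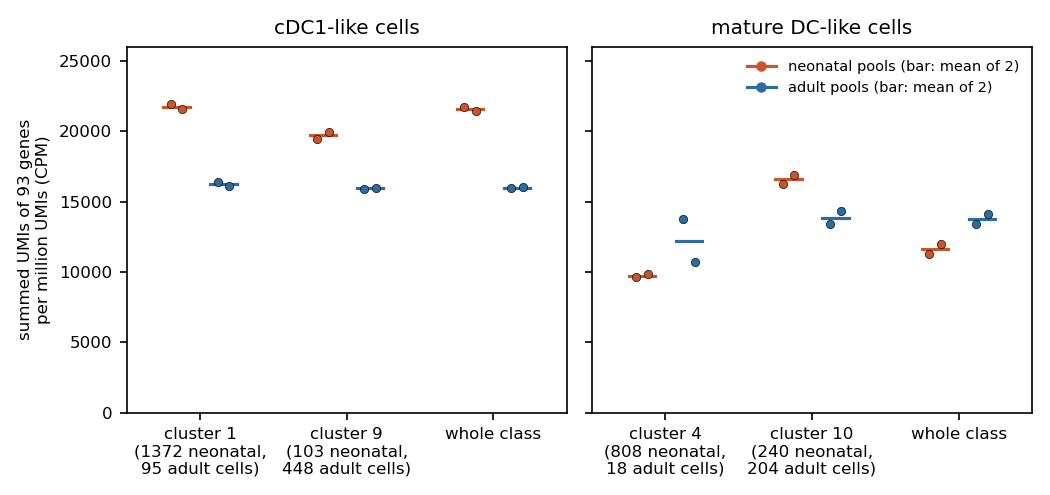
Summed CPM of the 93 genes in the clusters of cDC1-like (left) and mature DC-like cells (right) and in the whole class, with 1 point per pool, a bar at the mean of 2 pools and cell numbers under each cluster. Neonatal pools lie above adult pools in clusters 1, 9 and 10, and below them in cluster 4 (9620 and 9870 against 13753 and 10676 CPM), which has 9 adult cells in each pool.

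Cytosolic ribosomal protein genes were lower too in neonatal mature DC-like cells, with 74 of 90 called lower over the class. Their share of UMIs was 13.4% in neonatal and 18.9% in adult pools. This was not particular to the class. In cDC2-like, classical monocyte-like, nonclassical monocyte-like and T cell-like cells 64 of 90, 79 of 90, 71 of 91 and 64 of 85 were called lower. The medians of the family there were 0.24, 0.05, 0.03 and 0.32. In cDC1-like and neutrophil-like cells, ribosomal calls went both ways (17 higher and 23 lower, 24 higher and 22 lower). Median depth of mature DC-like cells was 4014 and 4298 UMIs per cell in neonatal and 6364 and 6589.5 in adult pools. Among neonatal cells it was lower in cluster 4 (3892 and 4135) than in cluster 10 (4858.5 and 4947.5). Adult cells of cluster 10 had 6310 and 6964. Markers of cDC1 summed to 1317 and 1089 CPM in neonatal and 414 and 324 CPM in adult mature DC-like cells. Of the 6 tested, 2 were called higher and 0 lower. The part of depth and of these markers in the result was not tested. Over the class, leaving out each pool in turn gave medians of the family from -0.392 to -0.313, with fewer calls each time. The test of the difference from cDC1-like cells gave 60 of 86 genes larger in cDC1-like cells and 0 smaller, against 8.04% and 10.1% of all genes. Atp5h differed by 1.00 ± 0.11, Cox8a by 0.80 ± 0.11 and Ndufb11 by 1.15 ± 0.17 (largest adjusted p = 5.6e-08). Without cluster 4 the count was 2 larger and 0 smaller of 85, against 1.33% and 2.31% of all genes, and Ndufb11 (0.66) and Ndufa4 (0.71) were those genes. Over the whole class, the count was lower without neonatal pool 1, and the share of all genes called there was not set beside it.

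Monocytes showed little change in the family relative to their other genes. In classical monocyte-like cells 6 of 85 genes were called higher and 4 lower, against 7.63% and 11.3% of all genes, with a median of 0.05. Cox7a2l was lower (471 and 507 against 595 and 611 CPM, -0.49 ± 0.06, adjusted p = 2.2e-10), as were Uqcrh (-0.31 ± 0.06), Atp5d (-0.31 ± 0.07) and Atp5c1 (-0.29 ± 0.07). Ndufa11 of the complex I membrane arm (248 and 252 against 147 and 151 CPM, 0.56 ± 0.10, adjusted p = 1.4e-06) and Cox6c (0.36 ± 0.07) were higher. Scaling mattered here. With library totals in place of TMM factors, which raised the neonatal over adult log2 values by 0.19 in classical and 0.12 in nonclassical monocyte-like cells, 40 genes were called higher and 1 lower in the first, against 18.4% and 6.6% of all genes. In the second, 19 were called higher and 1 lower, against 14.8% and 6.66%.

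In nonclassical monocyte-like cells, the patrolling type, 5 of 85 genes were called higher and 3 lower, against 9.79% and 9.74% of all genes, with a median of 0.03. Atp5g3 (232 and 234 against 167 and 139 CPM, 0.49 ± 0.10), Atp5k (157 and 154 against 103 and 90.1 CPM, 0.57 ± 0.12) and Ndufa6 (322 and 366 against 245 and 242 CPM, 0.38 ± 0.09) were higher. Ndufaf8 (-0.71 ± 0.19), Ndufb10 (-0.30 ± 0.09) and Uqcrfs1, the Rieske protein of complex III (-0.34 ± 0.11), were lower. Leaving out each pool in turn gave medians of the family from 0.003 to 0.055, with fewer calls without neonatal pool 2 or adult pool 2. Most neonatal cells of each monocyte class lay in another cluster than most adult cells (clusters 2 and 11, and clusters 0 and 7).

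The age difference was larger in cDC1-like than in nonclassical monocyte-like cells for 44 of 86 genes and smaller for 2, against 6.82% and 7.05% of all genes, with a median difference of 0.36. Ndufa4 differed by 1.23 ± 0.11, Cox6b1 by 0.69 ± 0.09 and Atp5e, the epsilon subunit of ATP synthase, by 0.52 ± 0.08 (largest adjusted p = 2.9e-07). The 2 smaller ones were Ndufa6 (-0.56 ± 0.10) and Cox7a2l (-0.32 ± 0.08). The count was lower without adult pool 2, and the share of all genes called there was not set beside it.

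Among the 7 classes tested, neutrophil-like cells held the family at its lowest level in both ages, and calls went in both directions. Of 78 tested, 21 were called higher in neonatal cells and 5 lower, against 16.3% and 15.9% of all genes, with a median of 0.21. Ndufa11 had 47.2 and 41.6 against 6.06 and 8.02 CPM (2.68 ± 0.36, adjusted p = 2.7e-08). Ndufv3, a small subunit of the NADH-binding part, had 76.1 and 71.7 against 17.2 and 30.9 CPM (1.68 ± 0.25), and Uqcrb had 77.4 and 65.5 against 24.3 and 22.9 CPM (1.62 ± 0.24). Atp5l (370 and 370 against 521 and 543 CPM, -0.48 ± 0.09), Cox7a2l (-0.46 ± 0.13), Atp5e (-0.34 ± 0.10) and Uqcrq (-0.45 ± 0.15) were lower.

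The ages hardly shared clusters among neutrophil-like cells. Cluster 14, led by secondary granule genes, held 87 and 132 neonatal and 0 and 0 adult cells, and cluster 6 held 307 and 429 neonatal and 0 and 0 adult cells. Without cluster 14, a setting also chosen after the clusters were seen, 5 genes were called higher and 3 lower, against 10.6% and 10.4% of all genes, with a median of 0.04. Ndufa11 (1.83, adjusted p = 0.0014) and Ndufa4 (0.72, adjusted p = 0.0042) were among the 5, while Ndufv3 (0.77), Uqcrb (0.74) and Cox7a2l (-0.37) did not pass. Mitochondrially encoded subunits were called higher in 12 of 12, with shares of UMIs of 0.576% in neonatal and 0.232% in adult pools. Over the class, leaving out each pool in turn gave medians of the family from 0.163 to 0.255, with fewer calls each time.

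In T cell-like cells, with 51 to 121 cells per pool, 3 of 78 genes were called higher and 1 lower, against 1.54% and 4.96% of all genes, while the median was 0.32. Atp5k (201 and 227 against 111 and 77.0 CPM, 1.01 ± 0.25, adjusted p = 0.013), Ndufb8 (0.89 ± 0.23) and Cox6c (0.60 ± 0.16) were higher, and Cox7a2l lower (476 and 378 against 588 and 607 CPM, -0.69 ± 0.15, adjusted p = 0.0078). With library totals in place of TMM the count was 23 higher and 0 lower, against 5.23% and 2.94% of all genes, the all-gene shift being 0.22. NK cell markers summed to 3454 and 3889 CPM in neonatal and 2635 and 1726 CPM in adult cells (1 of 7 tested called higher). T cell markers summed to 3563 and 3164 against 4344.5 and 4151 CPM (4 of 8 called lower), and the part of either list in the result was not tested. Proliferating cell markers summed to 878 and 2136 CPM in neonatal and 81.9 and 204 CPM in adult T cell-like cells. Without the cells holding 2 or more of their UMIs, 0 genes were called higher and 1 lower, against 0.686% and 4.77% of all genes, and the median was 0.18. With cycling cells kept, leaving out each pool in turn gave medians of the family from 0.225 to 0.323, with fewer calls without neonatal pool 2 or adult pool 2.

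Across the 7 classes, 3 genes were called higher in 5 classes, namely Atp5g3, Atp5k and Cox6c, and Ndufa11 in 4. The classes come from the same pools, and the share of all genes called higher in as many classes was not counted. Atp5g3 is 1 of 3 genes (with Atp5g1 and Atp5g2) that encode the same mature c-ring protein and differ in their targeting sequences. In cDC1-like cells all 3 were called higher, Atp5g1 by 0.51 ± 0.06 and Atp5g2 by 0.33 ± 0.05. In cDC2-like cells Atp5g1 was (0.35 ± 0.09, adjusted p = 0.0054), and Atp5g2 had 584 and 633 against 514 and 497 CPM (0.09 ± 0.07, adjusted p = 0.44). In both monocyte classes Atp5g3 was the one of the 3 that was called, with Atp5g1 and Atp5g2 between -0.02 and 0.12. The differences among the 3 were not tested.

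Cox7a2l stood apart from this. Its product, also known as a supercomplex factor, joins complexes III and IV and resembles the complex IV subunit encoded by Cox7a2. It was called lower in neonatal cells of 6 classes, by between -0.69 in T cell-like and -0.16 in cDC1-like cells. These classes share their pools, and how many of all genes were called lower in as many classes was not counted. Nonclassical monocyte-like cells had 493 and 515 CPM in neonatal and 420 and 404 CPM in adult pools (0.17 ± 0.07, adjusted p = 0.096). In edgeR it was called higher there with library totals (0.293, adjusted p = 0.00119), in thinned cells (0.458, adjusted p = 0.00197) and without a filter on low counts (0.21, adjusted p = 0.0417). The sign was the same in the 6 classes under each alternative tried. The cDC1-like call was lost within each cDC1-like cluster (-0.19 and -0.21), with library totals (adjusted p = 0.088), with DESeq2 (adjusted p = 0.16), without a filter on low counts (adjusted p = 0.060), in thinned cells (adjusted p = 0.36), at the finer clustering (adjusted p = 0.19) and without neonatal pool 1, neonatal pool 2 or adult pool 2 (adjusted p = 0.23, 0.058 and 0.093). The neutrophil-like call was lost without neonatal pool 1 (adjusted p = 0.14), with DESeq2 (0.15), in thinned cells (0.20), with predicted doublets kept (0.079) and without the granule gene cluster (0.052). The T cell-like call was lost without neonatal pool 2 (adjusted p = 0.16), with library totals (0.065), at the finer clustering (0.11), with predicted doublets kept (0.10), with no mitochondrial limit (0.056) and in thinned cells (0.91). The cDC2-like call was lost in thinned cells (adjusted p = 0.16), and the mature DC-like call without cluster 4 (adjusted p = 0.82). Cox7a2 itself had 297 and 290 against 216 and 226 CPM in cDC1-like cells (0.37 ± 0.06), so that these related genes were called in opposite directions there.

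**Figure D4:**
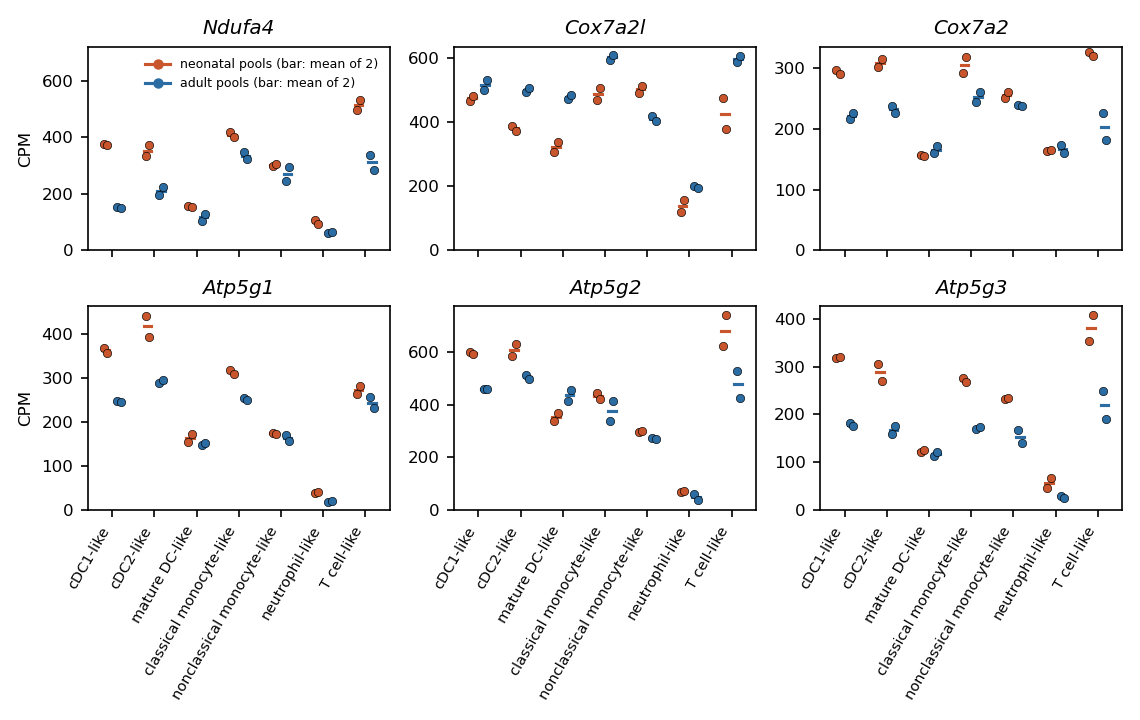
CPM of 6 genes in 7 classes (x axis), with 1 point per pool, a bar at the mean of 2 pools and each y axis starting at 0. Neonatal Cox7a2l lies below adult in 6 classes and above it in nonclassical monocyte-like cells (493 and 515 against 420 and 404 CPM), while neonatal Ndufa4 and Atp5g3 lie above adult in cDC1-like cells.

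Tissue-restricted relatives were rare in the sort. Over all 16 classes Cox8b, Cox8c and Cox7b2 had 0 UMIs, Ndufa4l2 had 1, Cox4i2, the form known from lung and low oxygen, had 12, Cox6a2 had 55 and Cox7a1 had 93, against 58781 for Cox4i1. Cox6b2 had 896 and was highest, among the 3 DC classes, in cDC2-like cells (67.1 and 65.5 against 43.7 and 27.7 CPM, 0.70 ± 0.20, adjusted p = 0.017).

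**Figure D5:**
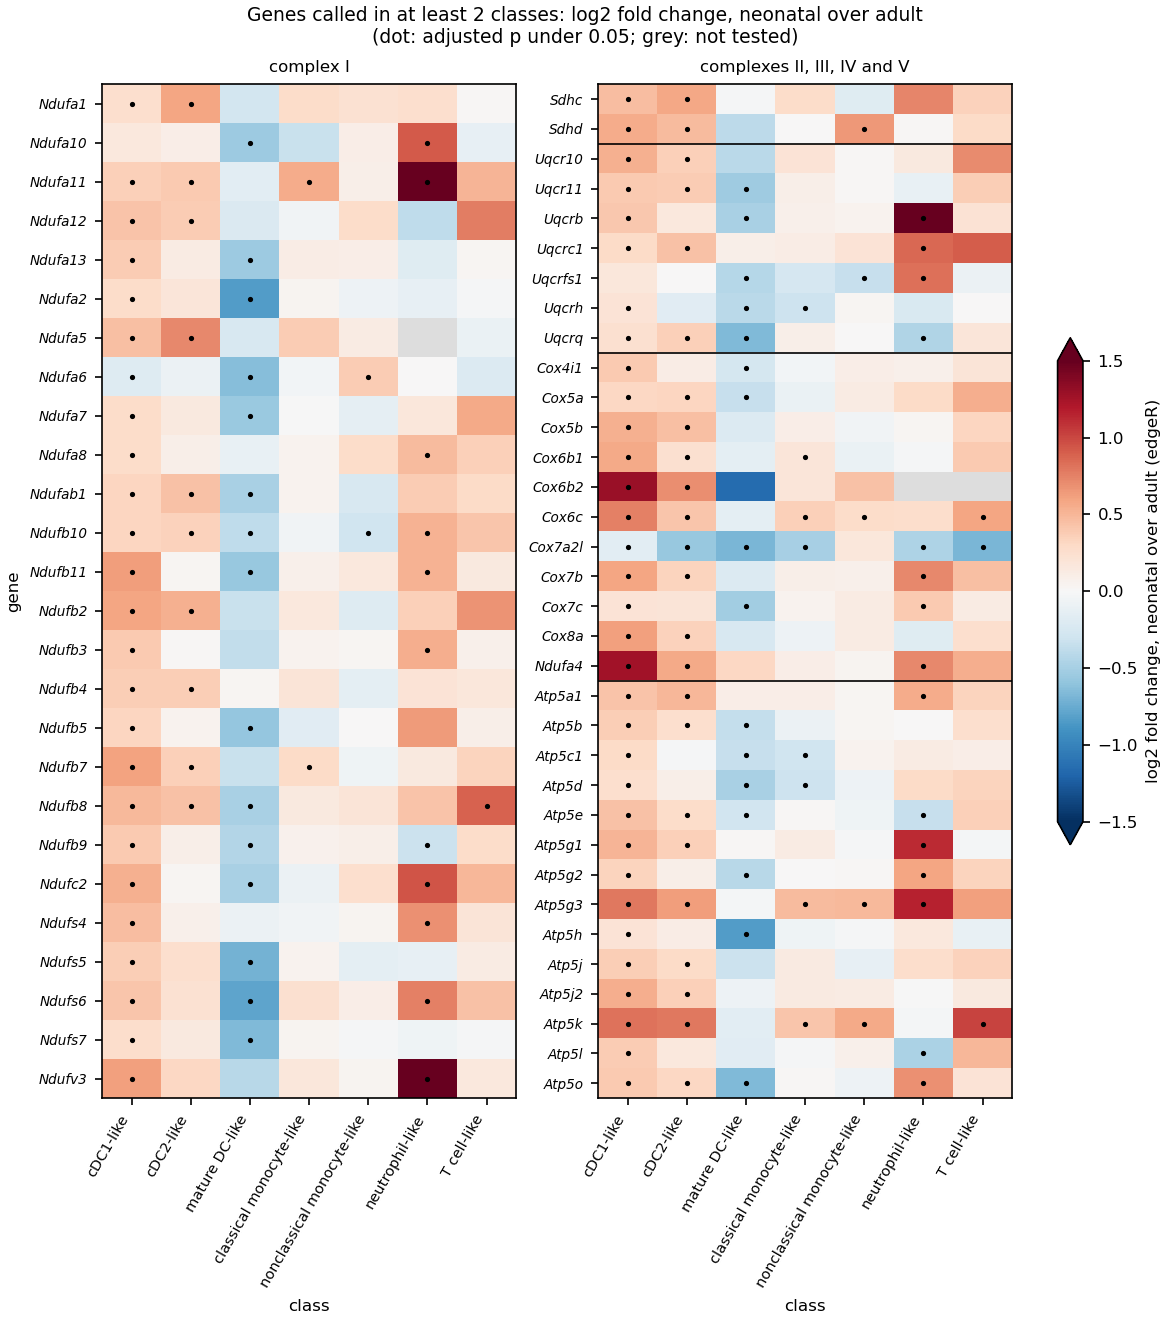
Log2 fold change of neonatal over adult (colour, limited to 1.5 in each direction) in 7 classes for the genes called in at least 2 of them, a display chosen by the calls, grouped by complex, with a dot for an adjusted p under 0.05 and grey where a gene was not tested. In these genes the cDC1-like and cDC2-like columns are mostly above 0 and the mature DC-like column mostly below, with Cox7a2l below 0 in 6 of 7 columns.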

How the data were processed

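Lung CD45.2+ YFP+ cells of 2 neonatal and 2 adult pools were read as 3′ UMI counts. The deposited matrix holds raw UMI counts per gene and barcode, made with Cell Ranger 6.1.2 per the file headers. Seurat 4.2.0 and the mm10 build are named in the submitters' processing notes, with no role given. The pool was taken from the number ending each barcode, as the series' text lists it. The filters required 500 genes and 1000 UMIs per barcode and a mitochondrial share of 10% or less, and removed doublets predicted by Scrublet and barcodes with over 20% of tag UMIs from the other tag. Cells were clustered in scanpy 1.11.5 (30 components, resolution 1) without the 93 genes, giving 22 clusters in 16 classes, of which 7 had at least 50 cells in every pool. Counts were summed per pool and class. CPM are UMIs per 1000000 UMIs of that sum, and 3′ counts are not compared between genes.

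Age was tested in edgeR 4.0.16 (R 4.3.3), with filterByExpr, TMM factors, the robust quasi-likelihood test and Benjamini-Hochberg adjustment over all genes tested (threshold 0.05). The standard error is the log2 value divided by the square root of F. Differences between classes were tested as interactions with the pool as a block. The scripts were tested on simulated data. Alternatives covered scaling, DESeq2 1.42.0, the low-count filter, cell filters, depth, clustering, cycling cells, a pool block and each pool left out. Same-numbered pools were not paired in the labels. Ratios of counts carry counting error as well as the spread between 2 pools.

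The members and lists were chosen with earlier results of these data known. Named were, in cDC1-like cells, the 3 called genes of each complex with the smallest p, in other classes the 3 with the smallest p, up to 4 called lower per class, close relatives, the 3 with the smallest p of each interaction and up to 2 called genes per pathway list. Some core subunits of complexes I to III, Atp5a1, Atp5b, the X-linked genes and genes listed within clusters were added after their values were seen. Counts of Ndufab1, Uqcrh, Atp5c1, Atp5k and Atp5l are uncertain where reads fit a pseudogene copy.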

Additional observations from a re-analysis of the deposited data

Results flagged for a closer look

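Age differences that differed between classes by a direct test (edgeR interaction, Benjamini-Hochberg adjusted) were taken up for a closer look. Against cDC2-like cells, 10 genes of the family differed (all larger in cDC1-like cells, against 4.25% of all genes larger and 4.54% smaller), among them Ndufa4 (0.684), Ndufb11 (0.584) and Cox7a2l (0.395) on the log2 scale. Against mature DC-like cells, 60 differed (all larger, against 8.04% and 10.1%), with Atp5h at 1.003, Cox8a at 0.803 and Ndufb11 at 1.147. Without the mostly neonatal mature DC-like cluster that count was 2 (both larger, against 1.33% and 2.31%). Against nonclassical monocyte-like cells, 46 differed (44 larger and 2 smaller, against 6.82% and 7.05%), with Ndufa4 at 1.227, Cox6b1 at 0.687 and Atp5e at 0.515. The 3 tests share the cDC1-like cells, and their causes were not tested.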

How the results depend on the processing

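All counts are of genes of the family called in edgeR unless said, and the cause of each shift was not tested. The share of all genes called can move with the setting too, so a count alone does not set the family apart from other genes. In cDC2-like cells that share was 16.6% in the main run, 6.43% with DESeq2, 11% in thinned cells and 21.1% with library totals. With library totals in place of TMM the counts were 23 in T cell-like, 55 in cDC2-like, 41 in classical monocyte-like and 20 in nonclassical monocyte-like cells, and 6 for cDC1-like minus cDC2-like. With DESeq2 they were 1 in T cell-like, 9 in cDC2-like, 6 in classical and 2 in nonclassical monocyte-like, 10 in mature DC-like and 4 in neutrophil-like cells. It was not run for the interactions. In cells thinned to 1000 UMIs, with fewer genes tested, they were 37 in cDC1-like, 7 in cDC2-like, 6 in classical monocyte-like, 10 in mature DC-like and 10 in neutrophil-like cells, and 2, 19 and 15 for cDC1-like minus cDC2-like, mature DC-like and nonclassical monocyte-like cells. Without a low-count filter they were 7 in T cell-like and 16 in neutrophil-like cells. With predicted doublets kept T cell-like cells gave 1, and at resolution 2 T cell-like cells gave 1, cDC2-like cells 18 and cDC1-like minus cDC2-like 5. Without cycling cells they were 1 in T cell-like and 23 in cDC2-like cells. Within the mostly neonatal cDC1-like cluster the count was 32, without it 20, without the granule gene cluster 8 in neutrophil-like cells, and without the mostly neonatal mature DC-like cluster 10 (all higher) in mature DC-like cells and 2 for cDC1-like minus mature DC-like. The last 3 settings and the 20 were chosen after seeing the data.

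Pool numbers did not pair the samples (correlations of same-numbered deviations from -0.126 to 0.043). With the number as a replicate block the counts were 7 in T cell-like and 18 in cDC2-like cells, and within 1.5 times elsewhere.

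Leaving out each pool gave 1 to 6 calls in T cell-like, 59 to 63 in cDC1-like, 16 to 30 in cDC2-like, 8 to 12 in classical monocyte-like, 5 to 9 in nonclassical monocyte-like, 10 to 30 in mature DC-like and 8 to 21 in neutrophil-like cells. It gave 5 to 10, 32 to 54 and 30 to 39 for cDC1-like minus cDC2-like, mature DC-like and nonclassical monocyte-like cells.

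The log2 ratio of the summed CPM after TMM scaling was 0.386 in cDC1-like, 0.202 in cDC2-like, -0.349 in mature DC-like, 0.006 in classical and 0.044 in nonclassical monocyte-like, 0.078 in neutrophil-like and 0.22 in T cell-like cells. Without mitochondrially encoded and ribosomal protein UMIs it was -0.34 in mature DC-like, 0.15 in classical and 0.118 in nonclassical monocyte-like and 0.29 in T cell-like cells.

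Signs reversed without the mostly neonatal mature DC-like cluster for the median of mature DC-like cells (0.319) and for Atp5g2 (0.36), Atp5g3 (0.664), Cox4i1 (0.254), Cox6b1 (0.528) and Uqcrq (0.001) there. They also reversed for Cox4i1 in classical monocyte-like cells with library totals (0.148) and for Cox7b in thinned cDC2-like cells (-0.05). Of the values of single named genes under the other alternatives, 1516 kept direction and side of the threshold, 143 lost the call and 45 gained one. T cell-like cells had the lowest class sums of UMIs among the 7 classes (207619 to 467708 per pool), and what that depth limits was not tested.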

Other observations

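Cox6a2, the heart and muscle form of a complex IV subunit, had 55 UMIs over all classes, of which 22 were in cDC2-like cells of adult pool 1. Markers of plasmacytoid DC summed to 382 CPM in those cells, against 63.4, 71.4 and 107 CPM in neonatal pool 1, neonatal pool 2 and adult pool 2, and their part in the Cox6a2 UMIs was not tested. Another 16 of its UMIs were in alveolar macrophage-like cells of neonatal pool 2, and neonatal pool 1 had 2 of its UMIs in all.

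Ppargc1b, absent from the UMIs of adult cDC1-like cells, had 36 and 12 UMIs in neonatal and 2 and 6 in adult cDC2-like cells, and 14 and 15 against 1 and 3 in classical monocyte-like cells. In mature DC-like cells it had 0 and 3 UMIs against 0 and 0. Proliferating cDC1-like cells, with 111 and 95 neonatal but 6 and 7 adult cells, gave 23164 and 22569 against 20731 and 17884 CPM for the family, and were not tested.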
